A study of Mus musculus with 12 samples.

Results

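The difference between male mice with Angelman syndrome (AS) and wild-type (WT) male mice was described across the autosomal genes of the ventral hippocampus. The comparison uses 6 of the 12 libraries of the series, chosen by their column names and labels: 3 AS males and 3 WT males. The other 6 libraries, 3 AS and 3 WT females, enter the estimate of the spread and the comparison of the sexes. Of 13951 genes in the deposited table, 13219 lie on autosomes, and 13135 of these passed a filter on low values and were tested. Each library holds polyadenylated RNA from 1 mouse, from the ventral end of its right hippocampus. All mice are labelled strain C57BL/6J and 12 to 16 weeks old, and the groups compared differ in the label of disease state alone. The labels do not give the allele that makes a mouse an AS mouse, so AS and WT below mean the groups as labelled.

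Angelman syndrome is a neurodevelopmental disorder that follows loss of the maternal copy of UBE3A. Neurons silence the paternal copy of this gene, so they depend on the maternal one. UBE3A is a ubiquitin ligase: it attaches ubiquitin to chosen proteins, many of which are then degraded by the proteasome. The ventral hippocampus takes part in emotional behaviour and the stress response, and its principal cells are pyramidal neurons of the CA fields and granule cells of the dentate gyrus.

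Levels and differences are given in log units as deposited. The log base is not stated. A difference of 0.1 is a change of 10.5% in abundance plus 1 if the base is natural and 7.18% if it is 2. Differences are AS minus WT, with the standard error (SE) of a linear model fitted with limma, and library values are given in the order 1, 2, 3. Read depth is unknown, since the table gives no counts. The 4 Y-linked genes measured were at 1.87 or more in all 6 male libraries and Xist was at 0.36 or less, as the sex labels require. All listed markers of CA1 and subiculum (8), of CA3 and CA2 (9) and of dentate granule cells (10) were in the table, with list means of 3.13 to 3.38, 2.85 to 3.08 and 1.88 to 2.15 per library. Most markers of other cell types and of neighbouring regions were in it as well (19 of 20 for choroid plexus, 14 of 15 for neighbouring regions), so their presence alone does not identify the tissue.

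Several libraries stood apart in markers of tissue other than hippocampal neurons. AS male 2 had the highest value of the 6 libraries for 18 of 19 markers of choroid plexus epithelium, the tissue that makes cerebrospinal fluid. Its mean over that list was 1.80, against 0.694 to 0.891 in the other libraries. It was also highest for 9 of 11 markers of ependyma and motile cilia. WT male 2 was highest for 15 of 18 oligodendrocyte markers, with a list mean of 3.66 against 3.20 to 3.47. It was also highest for 9 of 14 markers of neighbouring brain regions. WT male 1 was highest for 10 of 11 markers of meningeal fibroblasts and 9 of 13 of endothelial cells and pericytes. In bulk tissue, fewer cells of a type and less RNA per cell cannot be told apart.

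Ube3a levels overlapped between the groups. Ube3a (ENSMUSG00000025326, GRCm38 chr7:59228750-59311536, plus strand) stood at 2.79, 2.76 and 2.92 in WT males and at 2.62, 2.99 and 2.77 in AS males. Both the lowest and the highest of the 6 values were in AS libraries. The difference was -0.03 ± 0.09 (SE), with a 95% interval from -0.23 to 0.17 and an adjusted p of 0.968 (limma). Exons of Ube3a overlap those of Snhg14, the long RNA transcribed from the opposite strand whose extension silences the paternal Ube3a copy, and of 2 further genes on that strand. Whether reads were assigned by strand is not given in the sources used here, so the value may hold reads of both strands and does not check the labels. Of 11 tested genes of the Ube3a locus and its linked neighbours, 5 were higher in AS. Atp10a, a phospholipid flippase gene beside Ube3a, stood at 1.26, 1.44 and 1.25 in WT and 0.992, 1.03 and 1.03 in AS, and its groups did not overlap. Its difference was -0.30 ± 0.11 (adjusted p 0.752, limma).

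No autosomal gene passed an adjusted p of 0.05 (0 of 13135, 0%), and the smallest adjusted p was 0.748 (limma). Without adjustment, 407 genes were higher in AS at a p under 0.05 (3.10%) and 424 were lower (3.23%). The total of 831 compares with 657 that a threshold of 5% gives by its definition. When the 6 male libraries were fitted alone the total was 622 (275 higher, 347 lower), below that number. In 776 genes all 3 AS values lay above all 3 WT values (5.91%), and in 689 they lay below (5.25%). With 3 libraries against 3, a random order gives 5% in each direction. Since nothing passed, every difference below is a measured value that did not pass the test, and the genes named with a p under 0.05 had adjusted p values of 0.748 to 0.763.

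Differences were small and nearly balanced in direction. The difference was above 0 for 6827 genes (52.0%), and the median was 0.0046. Its size had a median of 0.0609, a 90th percentile of 0.183 and a 99th percentile of 0.476, beside a median SE of 0.0774. A size over 0.5 was reached by 118 genes (0.898%), of which 67 had a mean level under 1.5. The median size was 0.0975 among genes with a mean level under 1.5 and 0.0393 among the 496 genes at 5 or more. In that most abundant class of 496, 30 genes had all AS values above WT and 9 had all below. Over all genes these shares were 5.91% and 5.25%, so the count above was near the share of all genes.

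**Figure D1:**
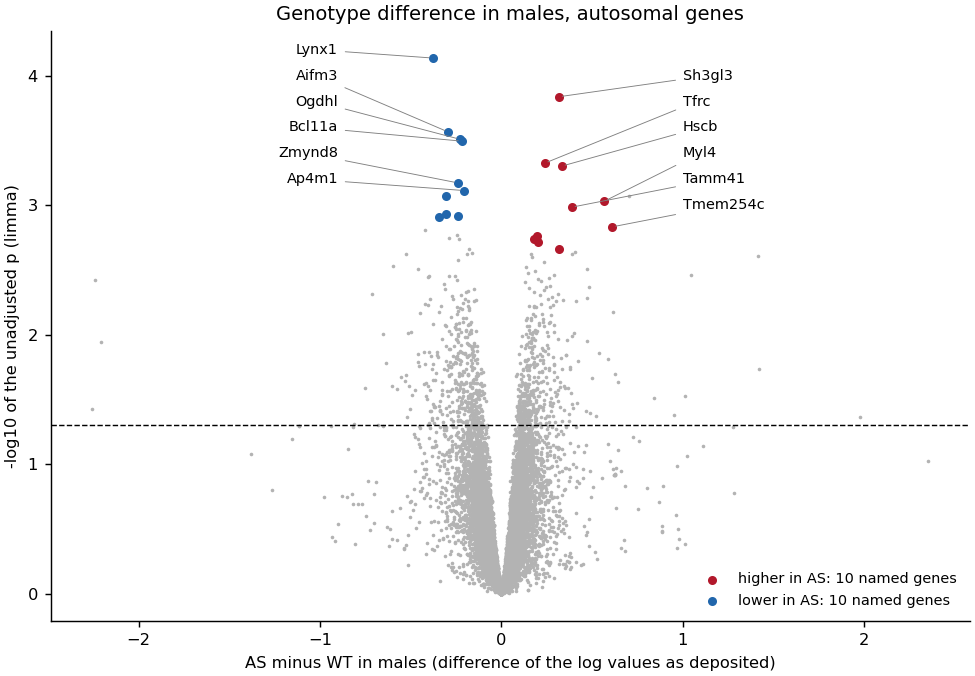
Difference between AS and WT males (x axis, log units as deposited) against -log10 of the unadjusted limma p (y axis) for 13135 autosomal genes, each a grey point; the dashed line marks a p of 0.05. The 10 genes of smallest p in each direction under the naming rule are coloured and 6 of them labelled; none of the 13135 passed adjustment, and the 20 coloured genes differ by 0.18 to 0.61 in size.

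The classes of genes differed in their spread. Among 90 small RNAs tested, 29 were higher in AS, with a median difference of -0.109 and a median size of 0.27. These transcripts are short and largely lack poly(A) tails, so a polyadenylated library holds them unevenly. Of 507 genes annotated with long noncoding and related transcript types, 228 were higher, and 37 had all AS values below WT against 17 above. This class includes processed transcripts, and the chaperonin gene Cct6a, named below, is annotated as 1 of them. Over all genes 5.25% had all AS values below and 5.91% above. The 12213 protein-coding genes had a median difference of 0.0055, with 6407 higher. By chromosome, the share of genes higher in AS ran from 46.4% on chromosome 7, which carries Ube3a, to 60.8% on chromosome 18. The share with an unadjusted p under 0.05 ran from 4.7% on chromosome 19 to 8.42% on chromosome 13, and chromosome 7 had 6.26%.

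Among genes higher in AS, those of smallest p included 1 endocytic gene and 2 genes of iron use. Sh3gl3 (ENSMUSG00000030638, chr7:82173840-82307419) encodes endophilin A3, a membrane-bending protein of vesicle endocytosis. It stood at 3.26, 3.19 and 3.25 in WT and 3.51, 3.69 and 3.45 in AS. The difference was 0.32 ± 0.06, or 37.3% of abundance plus 1 on a natural log, with a 95% interval from 0.19 to 0.44. Tfrc (chr16:32608920-32632794) encodes the transferrin receptor, which brings iron into cells. It stood at 3.50, 3.53 and 3.51 in WT and 3.76, 3.84 and 3.66 in AS. The 3 WT values lay close together and all AS values above them, and the difference was 0.24 ± 0.05. Hscb (chr5:110829070-110839777) encodes the mitochondrial co-chaperone that hands iron-sulfur clusters on to their targets. It stood at 2.04, 1.89 and 1.84 in WT and 2.23, 2.30 and 2.24 in AS, a difference of 0.33 ± 0.07.

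Other genes of smallest p in this direction had mixed roles. Myl4, a myosin light chain of atrial and embryonic muscle, stood at 1.45, 1.45 and 1.57 in WT and 2.12, 1.87 and 2.18 in AS, a difference of 0.57 ± 0.13. Tamm41, a mitochondrial enzyme on the path to cardiolipin, stood at 2.12, 2.18 and 2.09 in WT and 2.57, 2.45 and 2.52 in AS, a difference of 0.39 ± 0.09. The groups of both genes did not overlap, which the choice of genes required. Tmem254c, 1 of a set of near-identical neighbouring copies between which reads may be split, differed by 0.61 ± 0.15. The differences of Upp2 (uridine phosphorylase), Mmd and Mfap3l were 0.19 ± 0.05, 0.18 ± 0.05 and 0.20 ± 0.05. Mitd1, a protein of the last step of cell division, differed by 0.32 ± 0.08, and its exons overlap those of Lipt1 on the other strand. The predicted gene of smallest p, Gm13558, lies within the span of Upp2 on the same strand without sharing exons. It stood at 0.645, 0.695 and 0.304 in WT and 1.31, 0.991 and 1.47 in AS. Its difference was 0.71 ± 0.16, so the neighbouring pair was higher together, and reads from Upp2 introns could count for it. Gm13577, next among predicted genes, differed by 1.42 ± 0.37 at a low level, from 0.103 to 1.29 in WT and from 1.46 to 2.24 in AS.

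Among genes lower in AS, the smallest p belonged to Lynx1 (ENSMUSG00000022594, chr15:74747852-74753046, minus strand). It encodes a membrane-anchored protein that binds nicotinic acetylcholine receptors and dampens their response. It stood at 4.80, 4.86 and 4.83 in WT and 4.47, 4.31 and 4.58 in AS. All AS values lay below all WT values, and the difference was -0.38 ± 0.06 with a 95% interval from -0.51 to -0.24. Aifm3, a mitochondrial flavoprotein related to apoptosis-inducing factor, stood at 4.10, 4.06 and 4.00 in WT and 3.76, 3.70 and 3.82 in AS. Its difference was -0.29 ± 0.06. Ogdhl, a brain form of the E1 subunit of 2-oxoglutarate dehydrogenase, stood at 3.25, 3.30 and 3.34 in WT and 3.10, 2.99 and 3.11 in AS, a difference of -0.23 ± 0.04. The enzymes of the citric acid cycle as a group were balanced, with 12 of 23 higher in AS.

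A pair of transcription regulators of neurons followed. Bcl11a, a zinc-finger factor of cortical projection neurons, stood at 3.54, 3.60 and 3.49 in WT and 3.33, 3.34 and 3.31 in AS. The AS libraries nearly coincided, and the difference was -0.22 ± 0.04. Zmynd8, a reader of histone marks, stood at 3.65, 3.79 and 3.78 in WT and 3.56, 3.46 and 3.48 in AS, a difference of -0.24 ± 0.05. The remaining named genes of smallest p were Ap4m1 (-0.21 ± 0.05), Yjefn3 (-0.31 ± 0.07), Acyp1 (-0.30 ± 0.07), Stard5 (-0.24 ± 0.06) and Etl4 (-0.34 ± 0.08). Ap4m1 encodes a subunit of an adaptor complex of vesicle transport and Stard5 a lipid transfer protein. Exons of Bcl11a, Ap4m1, Yjefn3, Stard5 and Etl4 overlap genes on the other strand, as do those of Sh3gl3 and Myl4. On the same strand, exons of Stard5 overlap 1 gene and those of Mmd overlap 2.

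**Figure D2:**
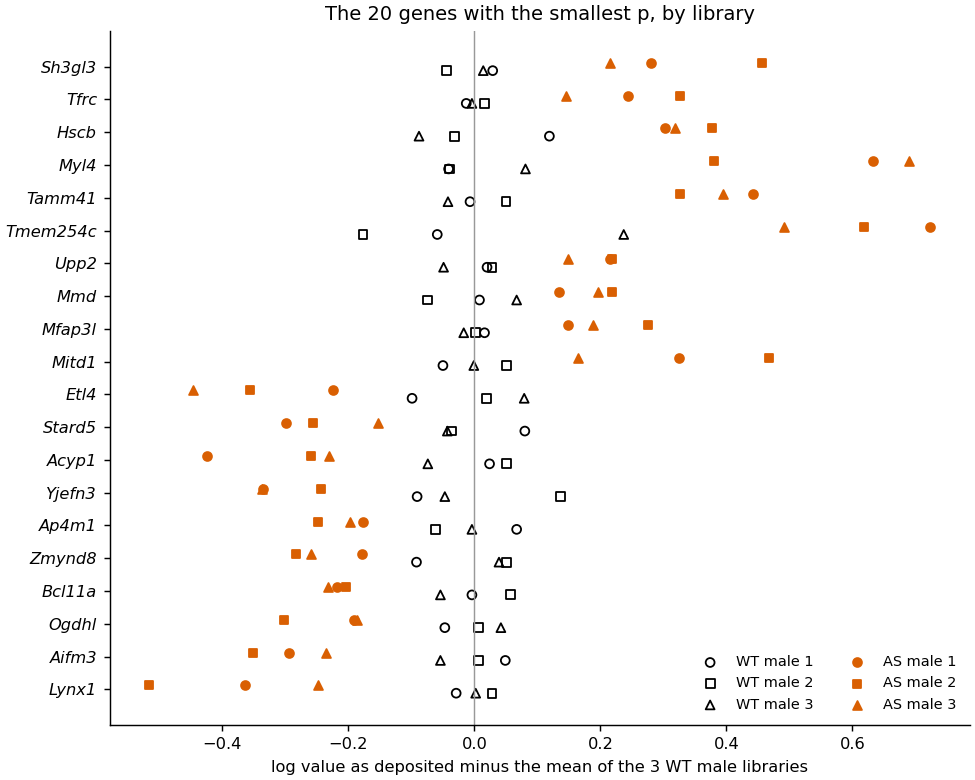
Value of each male library minus the mean of the 3 WT males (x axis, log units as deposited) for the 20 named genes of smallest p (y axis); open black symbols are WT and filled orange symbols AS, with circle, square and triangle for libraries 1, 2 and 3. These genes were chosen for groups that do not overlap, so a reader should look at how far each library lies from the others; for Lynx1, AS male 2 is farthest from WT, and for Myl4 it is nearest.

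The largest differences among non-overlapping genes of at least moderate level came mostly with wider spread. Baiap3, a relative of the Munc13 vesicle-priming proteins, stood at 1.94, 1.47 and 2.18 in WT and 2.81, 2.33 and 2.33 in AS, a difference of 0.63 ± 0.23. Its exons overlap those of Tsr3 on the other strand. Zfp423, Pnrc2 and Krt77 differed by 0.48 ± 0.14, 0.41 ± 0.12 and 0.39 ± 0.10. In the other direction, Coro6, an actin-binding coronin, stood at 2.20, 2.97 and 2.15 in WT and 1.90, 1.70 and 1.76 in AS. Its difference of -0.65 ± 0.21 was -0.39 without WT male 2. Cux2, a factor of upper cortical layers, stood at 1.93, 2.55 and 1.98 in WT and 1.73, 1.48 and 1.72 in AS, and its difference of -0.51 ± 0.17 was -0.31 without WT male 2. That library had the highest values of both genes and stood apart in markers of neighbouring regions, whose part in these differences was not tested. Cux2 is itself 1 of those 14 markers, so its own value helps to set this library apart. Serpina3n, a secreted protease inhibitor of reactive astrocytes, stood at 3.91, 3.98 and 4.03 in WT and 3.15, 3.72 and 3.33 in AS, a difference of -0.58 ± 0.23. Crip1 differed by -0.55 ± 0.21, and by -0.30 without WT male 1.

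Genes of the proteasome were mostly higher in AS by small amounts. This particle degrades ubiquitin-tagged proteins, with a 20S core that cuts them and a 19S cap that recognises and unfolds them. Of 48 tested genes of the core, cap, activators and assembly factors, 36 were higher in AS and the median difference was 0.0588, beside 52.0% of all genes higher and a median of 0.0046. The groups did not overlap for 10 genes that were higher and 0 that were lower, beside 5.91% and 5.25% of all genes. An unadjusted p under 0.05 (limma) was reached by 8 higher and 1 lower, beside 3.10% and 3.23% of all genes. All 7 alpha subunits of the core, 7 of 10 beta subunits, 5 of 6 ATPases of the cap, 9 of 12 other cap subunits and 8 of 13 activators and assembly factors were higher.

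The cap held the proteasome genes of smallest p. Psmd14, the deubiquitinase of the cap, stood at 4.19, 4.21 and 4.21 in WT and 4.28, 4.43 and 4.30 in AS, a difference of 0.13 ± 0.05. Psmd7, its partner subunit, stood at 4.24, 4.24 and 4.21 in WT and 4.31, 4.32 and 4.32 in AS. The libraries of each group nearly coincided, and the difference was 0.09 ± 0.03. Psmd5, a chaperone that assembles the cap, and Psmc1, 1 of its ATPases, differed by 0.11 ± 0.04 and 0.09 ± 0.04. The exception in direction was the activator gene Psme4, at 2.64, 2.81 and 2.70 in WT and 2.55, 2.69 and 2.48 in AS, a difference of -0.14 ± 0.06 that is named here after its value was seen. The mean over all 48 genes was 3.93, 3.88 and 3.86 in WT and 3.92, 3.90 and 3.96 in AS, so the list means of the libraries overlapped. Leaving out 1 male library at a time gave medians of 0.0329 to 0.0726 and 32 to 41 genes higher, and leaving out AS male 2 and WT male 2 together gave 42.

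The chaperonin TRiC, a ring of 8 subunits that folds actin and tubulin, had all 8 subunit genes higher in AS, by 0.00 to 0.14, with a median of 0.0573. In 5 of the 8 the groups did not overlap, beside 5.91% of all genes in this direction. Cct4 stood at 4.13, 4.17 and 4.22 in WT and 4.33, 4.34 and 4.24 in AS, a difference of 0.13 ± 0.05. Cct6a differed by 0.14 ± 0.06, with overlapping groups. The list mean was 4.49, 4.51 and 4.54 in WT and 4.58, 4.62 and 4.57 in AS, so no AS library lay below a WT library. In females 4 of the 8 genes were higher and the median was -0.0022. Of 29 ubiquitin-conjugating enzymes, 19 were higher in AS males with a median of 0.0277, which was 0.0087 without AS male 2 and 0.0147 without WT male 1. Ube2k (0.08 ± 0.04) and Ube2j1 (0.11 ± 0.05) were higher, and Ube2g2 (-0.12 ± 0.05) was lower.

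The heat shock list holds families of cytosolic and mitochondrial chaperones, their co-chaperones and 2 heat shock transcription factors, and was not limited to induced genes. Its genes were lower in 28 of 44 cases and higher in 16, with a median near 0 (-0.0106). The groups did not overlap for 2 higher and 3 lower genes, beside 5.91% and 5.25% of all genes. An unadjusted p under 0.05 (limma) was reached by 4 genes, all lower, beside 3.23% of all genes. Within the list, 1 of 10 genes of the HSP90 family and its co-chaperones was higher, 7 of 15 of the HSP70 family and 5 of 11 of the HSP40 family. Hsf1, the transcription factor that induces heat shock genes, stood at 2.95, 2.95 and 2.93 in WT and 2.82, 2.74 and 2.82 in AS. Its groups were apart by more than either one's spread, and the difference was -0.15 ± 0.04. Without WT male 2 the median of the list was 0.0129, and without that library and AS male 2 together 25 of 44 were higher.

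The other 3 heat shock genes with an unadjusted p under 0.05 each carried a match to the core of the heat shock element in their promoter, so these promoters are shown. The core searched was GAANNTTC on both strands. It can overlap the half-site of the glucocorticoid receptor, AGAACA, which was also searched. The sequences are the 250 bases before the RefSeq start on GRCm38.p6, read 5′ to 3′ on the gene's strand (chr17:34959239-34959488 minus for Hspa1b, chr1:55087898-55088147 plus for Hspe1, chr5:135887669-135887918 plus for Hspb1), with matches in capitals.
Hspa1b: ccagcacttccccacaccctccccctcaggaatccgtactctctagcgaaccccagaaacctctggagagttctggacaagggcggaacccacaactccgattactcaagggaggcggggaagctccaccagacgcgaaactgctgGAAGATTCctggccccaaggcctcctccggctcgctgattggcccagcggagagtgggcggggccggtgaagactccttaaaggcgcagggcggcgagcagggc
Hspe1: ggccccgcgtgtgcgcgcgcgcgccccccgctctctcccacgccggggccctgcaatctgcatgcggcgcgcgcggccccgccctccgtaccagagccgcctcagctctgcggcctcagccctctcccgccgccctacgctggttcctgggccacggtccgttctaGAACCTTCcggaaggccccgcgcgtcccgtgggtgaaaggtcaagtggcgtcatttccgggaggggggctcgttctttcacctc
Hspb1: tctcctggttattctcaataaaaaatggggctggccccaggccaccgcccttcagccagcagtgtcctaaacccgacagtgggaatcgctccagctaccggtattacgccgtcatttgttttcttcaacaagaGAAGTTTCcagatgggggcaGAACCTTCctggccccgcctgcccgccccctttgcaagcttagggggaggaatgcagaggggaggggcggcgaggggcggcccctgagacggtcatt
Hspb1 holds 2 matches and the others 1 each. In RefSeq windows from 250 bases before to 50 after a start, 16 of 50 windows of the heat shock list held the core (32%, for 36 of the 44 genes), against 2469 of 31365 autosomal windows (7.87%). A match describes letters and not binding.

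Those 3 genes were lower in AS. Hspa1b, the inducible HSP70, stood at 2.01, 2.13 and 2.13 in WT and 1.93, 1.88 and 1.80 in AS, a difference of -0.22 ± 0.08. It has a near-identical neighbouring copy, Hspa1a, with which reads may be shared. Hspe1, the mitochondrial co-chaperonin HSP10, stood at 4.83, 4.84 and 4.81 in WT and 4.73, 4.65 and 4.72 in AS, a difference of -0.13 ± 0.05. Hspb1, a small heat shock protein, stood at 2.40, 1.92 and 2.14 in WT and 1.55, 1.92 and 1.74 in AS. Its highest AS library met the lowest WT library, and the difference was -0.41 ± 0.16.

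Chaperones of the endoplasmic reticulum, which fold secreted and membrane proteins, were listed with sensors and transcription factors of the unfolded protein response. The list was mostly lower, with 9 of 32 higher in AS and a median of -0.0598. The groups did not overlap for 6 lower and 0 higher genes, beside 5.25% and 5.91% of all genes. An unadjusted p under 0.05 (limma) was reached by 5 lower genes, beside 3.23% of all genes. Of 14 lumenal chaperones 9 were lower, of 10 disulfide isomerases and oxidases 8, and of 8 sensors and transcription factors of the unfolded protein response 6. Of the 6 genes with groups apart, 4 were among these sensors and factors, 2 were lumenal chaperones and 0 were isomerases or oxidases. The 5 genes with an unadjusted p under 0.05 (limma) were 3 sensors or factors and 2 lumenal chaperones. Xbp1, a transcription factor of the unfolded protein response, stood at 4.11, 4.09 and 4.01 in WT and 3.82, 4.01 and 3.78 in AS, a difference of -0.20 ± 0.07. Calr, the lectin chaperone calreticulin, stood at 5.87, 5.98 and 5.82 in WT and 5.71, 5.79 and 5.65 in AS, a difference of -0.18 ± 0.07. Sdf2l1, a lumenal partner of the ER HSP70 system, stood at 2.44, 2.79 and 2.29 in WT and 2.00, 2.00 and 1.95 in AS, a difference of -0.52 ± 0.19. Ddit3, the stress factor CHOP, differed by -0.14 ± 0.05. In these 4 genes every AS library was below every WT library, for Xbp1 by less than the rounding of the values.

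This list as a whole had the same direction in females, where 5 of 32 genes were higher and the median was -0.0681. There 1 of 14 lumenal chaperones and 0 of 10 isomerases and oxidases were higher. The sensors and factors were split in females, with 4 of 8 higher and a median of -0.0103. The female libraries share no samples with the male ones, though both enter the estimate of spread. Leaving out 1 male library gave medians of -0.0938 to -0.0377, and leaving out AS male 2 and WT male 2 gave -0.062 with 10 higher. An element of the unfolded protein response (TGACGTGG, both strands) was in 1 of 29 promoter windows of the list (3.45%), against 0.682% of all windows. In the proteasome list, 7 of 48 windows held the antioxidant response element TGACNNNGC (14.6%, against 12.5% of all).

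Translation factors were more often higher, and ribosomal proteins were not. Of 62 genes of translation initiation and elongation, 41 were higher in AS with a median of 0.0381. The groups did not overlap for 10 higher and 1 lower, beside 5.91% and 5.25% of all genes. Eif2b3, a subunit of the exchange factor that recharges the initiation factor eIF2, stood at 2.39, 2.29 and 2.29 in WT and 2.53, 2.63 and 2.57 in AS, a difference of 0.25 ± 0.07. Eif2b4, another subunit, stood at 2.94, 2.89 and 2.94 in WT and 3.11, 3.05 and 3.04 in AS, a difference of 0.14 ± 0.05. Both subunits were apart between the groups. Eif4a3, a helicase of the exon junction complex, and Eif1, which guards the choice of start codon, differed by 0.17 ± 0.05 and 0.11 ± 0.04. In females 16 of the 62 were higher, with a median of -0.0188. For the difference between the sexes, 1 gene of the list had an unadjusted p under 0.05 (limma), beside 3.72% of all genes. The male median was 0.0236 without AS male 3. Of 77 cytosolic ribosomal proteins 41 were higher in AS males, with a median of 0.0018. That count was 21 without WT male 3, 29 without AS male 3 and 64 without AS male 2. The groups of Rpl5 (0.18 ± 0.06) were apart while those of Rpl28 (-0.34 ± 0.14) overlapped. Mitochondrial ribosomal proteins (34 of 76) and nuclear genes of oxidative phosphorylation (32 of 70) were balanced. The latter count was 54 without AS male 2, 23 without WT male 3 and 23 without AS male 3.

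Genes of cholesterol synthesis were higher in 19 of 21 cases, with a median of 0.0615. In brain this pathway serves membranes and myelin. Hmgcs1, which makes its early intermediate HMG-CoA, stood at 4.40, 4.55 and 4.43 in WT and 4.61, 4.56 and 4.56 in AS, a difference of 0.12 ± 0.05. The groups of Hmgcs1 lay close without overlapping. Non-overlapping groups were seen in 2 of the 21 genes, both higher, beside 5.91% of all genes. The list mean was 3.12, 3.14 and 3.09 in WT and 3.19, 3.08 and 3.24 in AS, and AS male 2 was the lowest of the 6. Without AS male 3 the median was 0.0232 and 11 genes were higher. Without AS male 2 it was 0.109, and without AS male 2 and WT male 2 together 0.138. Of 30 splicing factors 22 were higher, with a median of 0.0268, but without AS male 2 the count was 16 and the median 0.0049. Hnrnpk, an abundant RNA-binding protein, stood at 5.63, 5.49 and 5.62 in WT and 5.70, 5.86 and 5.67 in AS, a difference of 0.17 ± 0.06.

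Ion channel genes were mostly lower in AS males. Potassium channels set the resting potential and end the action potential, and of 48 tested 13 were higher, with a median of -0.0619. An unadjusted p under 0.05 (limma) was reached by 5 genes, all lower, beside 3.23% of all genes. Kcnj11, the pore of the ATP-sensitive channel, stood at 2.39, 2.45 and 2.07 in WT and 1.88, 1.85 and 1.99 in AS, a difference of -0.39 ± 0.12. Kcnc1, a fast channel of rapidly firing neurons, stood at 3.73, 3.89 and 3.81 in WT and 3.67, 3.56 and 3.67 in AS, a difference of -0.18 ± 0.06. In both genes the groups were apart, for Kcnc1 narrowly. Kcna2 and Kcnn1 differed by -0.20 ± 0.08 and -0.18 ± 0.08. The list means were 2.57, 2.61 and 2.59 in WT and 2.54, 2.52 and 2.54 in AS. Medians with 1 library left out ran from -0.0697 to -0.0525, and without AS male 2 and WT male 2 the median was -0.0586. In females 34 of the 48 were higher, with a median of 0.0309.

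Sodium and calcium channels, which start the action potential and couple it to release, had 7 of 24 higher and a median of -0.0551. Scn4b, an accessory sodium channel subunit, stood at 1.15, 1.92 and 1.05 in WT and 0.825, 0.814 and 0.981 in AS. WT male 2 was far above the rest, and the difference of -0.50 ± 0.21 was -0.23 without it. Nalcn, the sodium leak channel, differed by 0.12 ± 0.05. Of 12 genes of the axon initial segment and sodium pump 3 were higher, and 6 without AS male 2. Sptbn4, the βIV spectrin that anchors channels there, stood at 3.76, 3.77 and 3.69 in WT and 3.57, 3.43 and 3.58 in AS, a difference of -0.21 ± 0.06.

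Synaptic genes depended more on single libraries. Of 23 postsynaptic scaffold and CaMKII genes 2 were higher, with a median of -0.0523. Shank2 and Shank1 are scaffolds that tie glutamate receptors to the cytoskeleton. Shank2 stood at 3.42, 3.56 and 3.41 in WT and 3.28, 3.32 and 3.23 in AS, a difference of -0.19 ± 0.06. Shank1 stood at 4.29, 4.32 and 4.26 in WT and 4.14, 4.07 and 4.15 in AS, a difference of -0.17 ± 0.05. Both had groups that did not overlap, and no other gene of the list did, beside 5.25% of all genes in this direction. WT male 2 had the highest list mean (4.15 against 4.01 and 4.03) and AS male 2 the lowest (3.94 against 4.02 and 4.02). The count was 0 to 8 with 1 library left out. Without AS male 2 and WT male 2, 12 of the 23 were higher and the median was 0.0088.

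Of 27 genes of synaptic vesicle release 8 were higher, against 13 without WT male 2 and 15 without AS male 2. Vamp1, a vesicle SNARE, stood at 4.00, 4.27 and 4.00 in WT and 3.83, 3.83 and 3.88 in AS, a difference of -0.25 ± 0.08. Syt2, the calcium sensor of fast synapses, differed by -0.34 ± 0.14 with WT male 2 and by -0.18 without it, and Rims1, a protein of the active zone, by -0.16 ± 0.07 and -0.10. Sv2c, a vesicle glycoprotein, went the other way, at 1.32, 1.56 and 1.29 in WT and 1.65, 1.80 and 1.61 in AS, a difference of 0.29 ± 0.09. Among glutamate receptors, 2 of 3 AMPA, 1 of 6 NMDA and 3 of 7 kainate and delta receptor genes were higher. Grik2, a kainate receptor subunit, stood at 3.16, 3.01 and 3.12 in WT and 3.21, 3.37 and 3.24 in AS, a difference of 0.17 ± 0.06. Of 7 metabotropic receptors 2 were higher, with a median of -0.0816 that was 0.006 without WT male 2, where 4 were higher. Grm2, an inhibitory receptor on glutamate terminals, differed by -0.30 ± 0.11, and by -0.41 to -0.16 with 1 library left out. GABA-A receptor genes were split, with 6 of 11 higher and 4 without AS male 2. Interneuron markers were split as well, with 9 of 20 higher and a median of -0.0229. An unadjusted p under 0.05 (limma) was reached by 4, all lower, beside 3.23% of all genes. They were Vip (-0.25 ± 0.09), Lamp5 (-0.39 ± 0.15), Pvalb (-0.18 ± 0.07) and Reln (-0.25 ± 0.11). Of these only Vip had groups that did not overlap. WT male 2 had the highest values of Lamp5 and Reln, and without it their differences were -0.18 and -0.135. Lamp5 is also 1 of the 14 markers of neighbouring regions in which that library stood apart. With 1 library left out 5 to 12 markers were higher, and in females 2 of 20 were, with a median of -0.111.

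The lists that hold Tfrc, Hscb, Sh3gl3 and Lynx1 were close to balance, and the list that holds Bcl11a was mostly lower. Of 38 genes of iron handling, with Tfrc and Hscb among them, 19 were higher, and the median was 0.0019. Bola3, another factor of iron-sulfur cluster assembly, differed by -0.19 ± 0.08, the opposite direction to Hscb. Of 31 genes of vesicle endocytosis, with Sh3gl3, 13 were higher, and 19 without AS male 2. Sh3gl1, a further endophilin, stood at 2.79, 2.99 and 2.93 in WT and 2.73, 2.66 and 2.81 in AS, a difference of -0.17 ± 0.06, against 0.32 for Sh3gl3. Of 18 cholinergic receptors, enzymes and Ly6 modulators, with Lynx1, 9 were higher, and from 5 to 12 with 1 library left out. Of 29 regulators of projection neurons, with Bcl11a, Zmynd8 and Cux2, 9 were higher, with a median of -0.0404. Their list means were 2.91, 2.99 and 2.91 in WT and 2.83, 2.87 and 2.85 in AS, so every AS library was lower. Medians with 1 library left out ran from -0.0724 to -0.0285. In females 17 of the 29 were higher, with a median of 0.0254.

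The next lists concern stress hormones, neuronal activity and the clock. The glucocorticoid list holds the receptors of the stress hormone and its target genes. Of 19 target genes 1 was higher, with a median of -0.188, while both receptors were higher. Nr3c2, the mineralocorticoid receptor, stood at 3.44, 3.12 and 3.32 in WT and 3.48, 3.43 and 3.71 in AS, a difference of 0.25 ± 0.10 with overlapping groups. Among targets, Dusp1, a phosphatase of MAP kinases, stood at 2.56, 2.59 and 2.85 in WT and 2.33, 1.88 and 2.51 in AS, a difference of -0.43 ± 0.16. Dusp1 is also in the list of immediate early genes described below, and its difference was -0.25 without AS male 2. Klf9, a zinc-finger factor, differed by -0.19 ± 0.08. The mean of the targets was 2.72, 2.94 and 3.11 in WT and 2.71, 2.60 and 2.78 in AS, so the groups overlapped through WT male 1. Over the whole list of 21 the median was -0.183 and 3 genes were higher, against 7 without AS male 2 and WT male 2. The half-site AGAACA was in 4 of 27 promoter windows of the list (14.8%, against 19% of all). Dissection time and handling order are not in the labels, so their part was not tested.

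Immediate early genes, which neurons switch on within minutes of activity, turned on AS male 2. Of 36 genes 7 were higher, with a median of -0.0989, and 22 were higher without AS male 2, with a median of 0.055. Without WT male 2, 13 were higher. The list mean was 2.04 in AS male 2 and 2.27 to 2.57 in the other 5 libraries. Bdnf, the neurotrophin, went the other way, at 2.11, 2.37 and 2.18 in WT and 2.37, 2.38 and 2.58 in AS, a difference of 0.22 ± 0.08 with overlapping groups. Of 19 clock genes 3 were higher, with a median of -0.0619, and the median was 0.0156 without AS male 2 and WT male 2. Of 20 interferon-stimulated genes 12 were higher, but 6 without AS male 2, 8 without WT male 1 or WT male 2 and 17 without WT male 3, so the direction of this list turned with single libraries. Of 21 mTOR pathway genes 7 were higher, and of 21 genes of reported UBE3A substrates and partners 10. The interferon and substrate lists held no gene with an unadjusted p under 0.05 (limma), beside 3.10% higher and 3.23% lower of all genes.

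**Figure D3:**
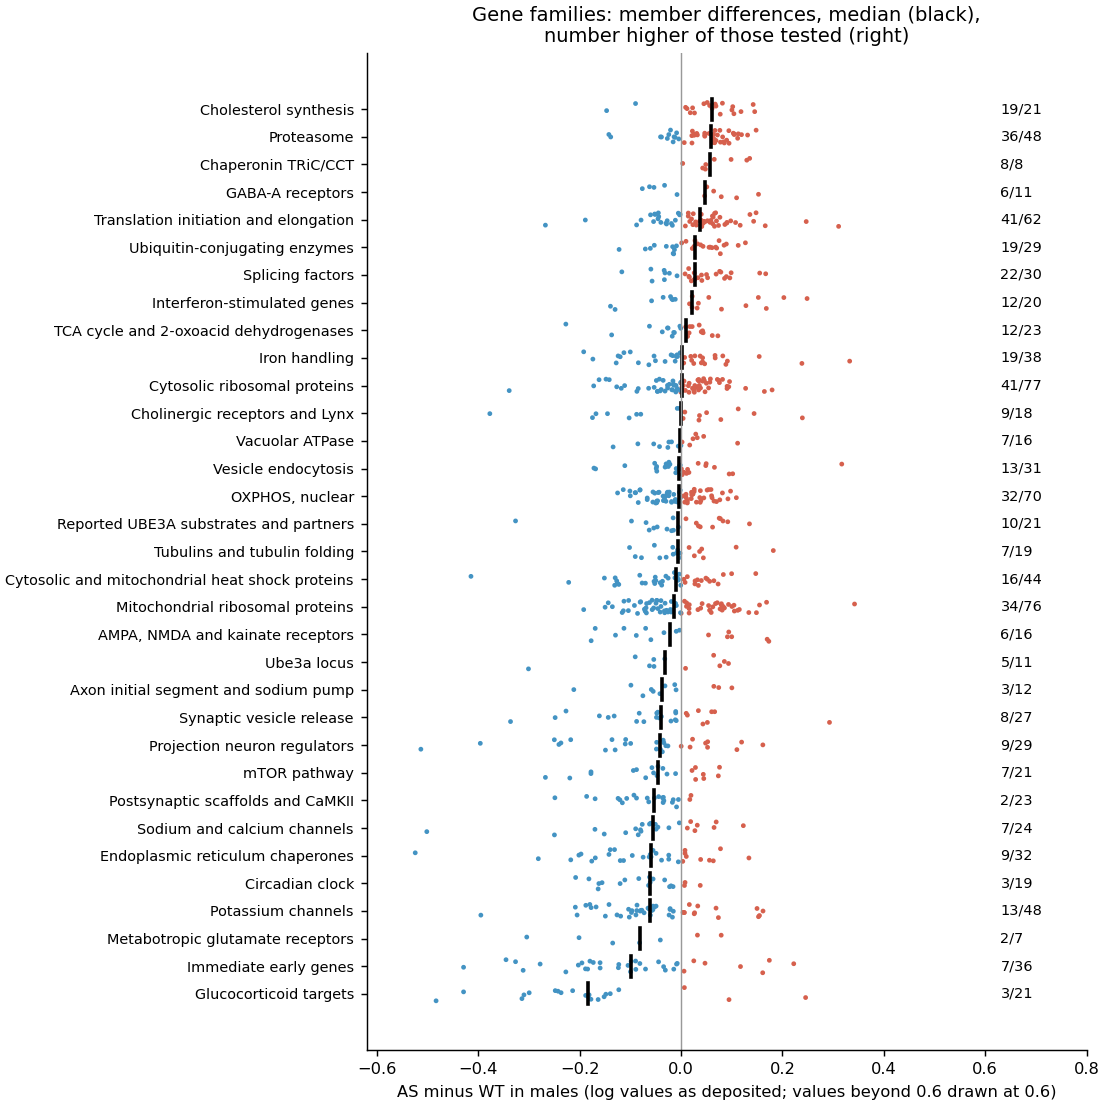
AS minus WT difference in males (x axis, log units as deposited) of each tested member (points, red above 0 and blue below) of the gene families (y axis), ordered by their median (black line), with the number higher of those tested at the right. Cholesterol synthesis (19 of 21), the proteasome (36 of 48) and TRiC (8 of 8) are at the top, and glucocorticoid targets (3 of 21) and immediate early genes (7 of 36) are at the bottom.

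Families were also formed from the stem of the gene symbol, a description made after the values were seen. Of 194 stems with at least 8 tested genes, 10 had 80% or more of their genes higher in AS and 2 had 20% or fewer. The 2 were histone genes, with 1 of 12 higher and a median of -0.211, and CaM kinase genes, with 2 of 10 higher and a median of -0.0658. The groups did not overlap for 3 histone genes, all lower, beside 5.25% of all genes. Hist3h2ba stood at 3.16, 3.12 and 3.19 in WT and 2.90, 2.52 and 3.02 in AS, a difference of -0.34 ± 0.10. Hist3h2a differed by -0.29 ± 0.10 and Hist1h2bc by -0.16 ± 0.06. Most histone transcripts lack a poly(A) tail, so a polyadenylated library measures only the tailed part. Among stems mostly higher were Dock (8 of 8), Prpf splicing genes (12 of 13), Sox (11 of 12) and Cnot deadenylase genes (10 of 11), with medians of 0.0329 to 0.0478.

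The influence of single libraries was uneven. AS male 2 was the library farthest from its group mean for 52.7% of genes, and its median distance was 0.083 against 0.0523 to 0.057 for the other 5. Its estimated quality weight was 0.319, and the other male libraries had 0.706 to 1.79. Without it, 21.4% of genes changed the sign of their difference, against 12.2% to 15.6% without any other library. Choroid plexus markers were all 19 higher in AS with it, with a median of 0.254, and the median was -0.0251 without it. Leaving out WT male 2 changed the count of genes with an unadjusted p under 0.05 the most, to 581, of which 369 were among the 831 (44.4%). Leaving out any other library gave 762 to 936 genes. In all 6 such fits 194 genes kept an unadjusted p under 0.05, 95 higher and 99 lower. All 20 named genes of smallest p were among them, and of the 10 with the largest differences, 6 were. Both sets were chosen from these same libraries for groups that do not overlap, so these counts are a description.

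The call of 1 small RNA depended on WT male 2. Snora21, a small nucleolar RNA that guides modification of ribosomal RNA, stood at 3.48, 0.494 and 3.53 in WT and 0.173, 0.251 and 0.359 in AS. WT male 2 was near the AS libraries, and the other 2 WT libraries were about 3 log units above them. With all libraries the difference was -2.24 ± 0.62 (adjusted p 0.748, limma). Without WT male 2 it was -3.25 with an adjusted p of 0.00027 (limma), the only call among the 6 fits that left out 1 male library. Its unadjusted p was under 0.05 in all 6 of them.

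The difference between genotypes was also compared between the sexes. The test of male minus female differences called 0 genes (0%), with a smallest adjusted p of 0.987 (limma), and 488 genes had an unadjusted p under 0.05 (3.72%). In females alone 406 autosomal genes had an unadjusted p under 0.05 and 0 were called. Of the 20 named genes of smallest p in males, 15 had the same sign in females and 5 the opposite sign, and 13 had an unadjusted p under 0.05 for the difference between the sexes. Because these genes were chosen for their male difference, that count is a description.

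Hscb, Tamm41 and Mitd1 were higher in AS males and had negative differences in females. Hscb differed by 0.33 in males and -0.12 ± 0.07 in females, so that the difference of differences was 0.45 ± 0.10. Tamm41 had -0.06 ± 0.09 in females and Mitd1 -0.15 ± 0.08. Bcl11a differed by -0.22 in males and 0.05 ± 0.04 in females. Lynx1 kept its sign, at -0.19 ± 0.06 in females, and Tmem254c was nearly equal in size, at 0.57 ± 0.15 in females and 0.61 in males. Among families, potassium channels (13 of 48 higher in males, 34 in females), sodium and calcium channels (7 and 20 of 24), synaptic vesicle release (8 and 23 of 27) and NMDA receptors (1 and 6 of 6) differed in the count of genes higher. Of the 48 potassium channel genes 5 had an unadjusted p under 0.05 (limma) for the difference between the sexes, beside 3.72% of all genes. Kcnj11 was among them (-0.51 ± 0.16, male minus female). Choroid plexus markers also differed between the sexes, with a median of 0.254 in males and -0.663 in females, and their part in these counts was not tested.

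**Figure D4:**
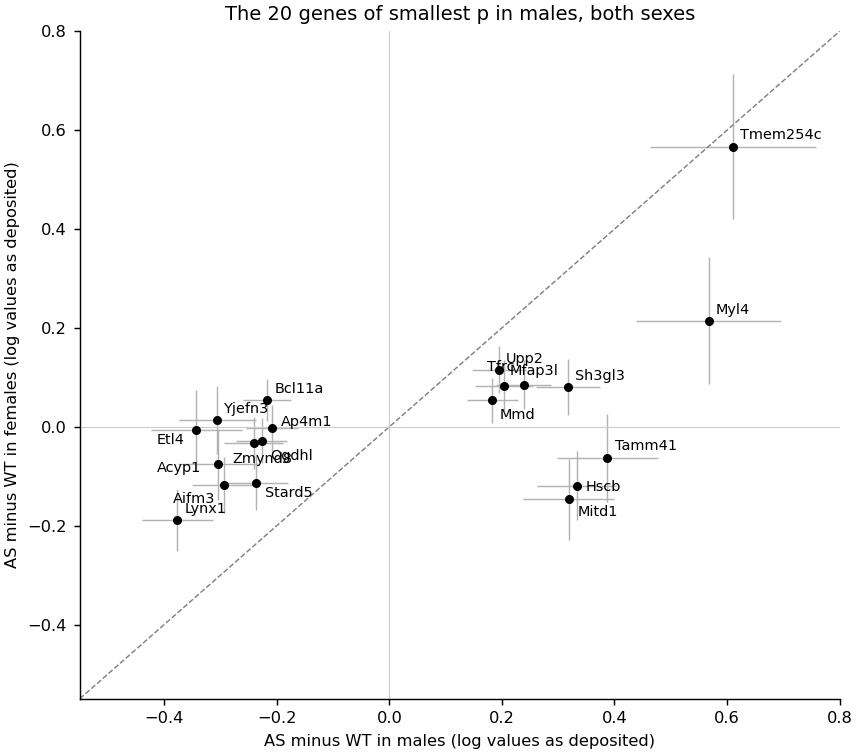
AS minus WT difference in males (x axis) and females (y axis), in log units as deposited with SE bars, for the 20 named genes of smallest p in males; the dashed line marks equal differences. Most points lie nearer to 0 in females, Tmem254c lies close to the line, and Hscb, Mitd1 and Tamm41 lie below 0 in females; the genes were chosen on the male axis.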

How the data were processed

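RNA was isolated, prepared as polyadenylated libraries and sequenced in paired ends, per the labels' protocols. The submitters' processing notes name Trimmomatic, Bowtie2 and RSEM and the builds GRCm38 and mm10, without versions. The deposited table holds 13951 genes in 12 columns on a log scale, which was read as a natural log (ln) of an abundance plus 1. Its base, unit, normalization and filter are not given in the sources used here. Values run from 0.1 to 10.08 with no zeros, so no count test was possible and depth and counting error are unknown.

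Columns were matched to samples by title. Symbols and coordinates came from GENCODE M21 (GRCm38), and promoters from RefSeq (GRCm38.p6). Genes with a mean abundance under 1 on the natural log reading were left out (93). In R 4.3.3, limma 3.58.1 estimated 4 group means from the 12 libraries (8 residual degrees of freedom, variance trend), with Benjamini-Hochberg adjustment over 13858 genes. The code was checked on simulated data. The labels' design text counts mice, so each library is an animal.

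The named genes follow a rule: genes called, then the 10 per direction with the smallest unadjusted p and the 5 per direction with the largest difference (mean abundance of at least 5) among genes whose groups do not overlap, up to 4 members per list with an unadjusted p under 0.05, and Ube3a. Some list members that meet the rule are not named in the text. Predicted genes and small RNAs stand apart, with the 2 of smallest p named. The gene lists, members and tests were chosen with earlier results of these data known. Lists have counts and medians and no test. Tried alternatives were another added constant, other filters, base 2, males alone, library weights, a robust prior, quantile normalization again, a choroid plexus covariate and each male library left out. Leaving out AS male 2 and WT male 2 together was added after seeing the data.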

Additional observations from a re-analysis of the deposited data

How the results depend on the processing

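No gene was called under any single alternative except without WT male 2, which called 1 (Snora21), so the count ranged from 0 to 1 over the fits that left out 1 male library. The same range, 0 to 1, held for the difference between the sexes, and leaving out AS male 2 and WT male 2 also called 1 gene. With 1 library left out, fewer values have to be apart, and the genes with non-overlapping groups numbered 1263 to 1843 higher and 1141 to 1371 lower, or 2839 and 2123 without both libraries. The Ube3a difference ranged from -0.13 to 0.05 with 1 library left out, and was above 0 without WT male 3 (0.017) and without AS male 1 (0.054). The median of the heat shock list ranged from -0.033 to 0.013, and 25 of its genes were higher without both libraries. Glucocorticoid targets had 7 higher without both. Immediate early genes had 6 to 22 higher with 1 library left out, 23 with library weights, 11 with the choroid plexus covariate and 25 without both. Postsynaptic genes had 0 to 8 higher with 1 library left out, 8 with weights, 4 with the covariate and 12 without both, where their median was 0.0088. With 5 added to the abundance, the median of the potassium channels was -0.0423. For the lists, the cause was not tested. No paired analysis was possible because the labels give no replicate numbers. The unknown depth limits the reading of low genes.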
